A study of Mus musculus with 2 samples.

Results

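Ccr7-positive mature dendritic cells were followed in orthotopic pancreatic tumors of mice by single-cell RNA sequencing. The members were cells with at least 1000 unique molecular identifiers (UMIs, each the count of 1 captured RNA molecule), at least 200 detected genes and at most 5% mitochondrial UMIs that held at least 1 UMI of Ccr7. They also had at least 0.3% of their UMIs in the major histocompatibility complex (MHC) class II genes H2-Aa, H2-Ab1, H2-Eb1 and Cd74, under 0.1% in the complement genes C1qa, C1qb and C1qc, and at most 2 UMIs of the tumor cell genes Krt8, Krt18 and Cdkn2a. The rule found 104 of 36642 cells, of which 64 were among 17814 control cells and 40 were among 18828 cells from tumors after insufficient irreversible electroporation (iIRE). The cells were thus chosen by the measured levels of these genes, and the levels of Ccr7, MHC class II, C1q and the tumor cell genes in them are given as description only.

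Dendritic cells take up antigen in tissues and present it to T cells. Upon maturation they switch on the chemokine receptor CCR7, which guides them along gradients of CCL19 and CCL21 through lymphatic vessels to the draining lymph node. Mature cells lower antigen uptake, display costimulatory proteins such as CD40, CD80 and CD86, rebuild the actin cytoskeleton with the bundling protein fascin (encoded by Fscn1), secrete CCL17, CCL22 and CCL5, and also carry inhibitory proteins such as PD-L1 (encoded by Cd274).

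Both groups were tumors of KPC, a pancreatic cancer line derived from genetically engineered mice with Pdx1-Cre, grown in the pancreatic tail of male C57BL/6 mice that were 5 to 7 weeks old when obtained. The engineered alleles thus lie in the transplanted line, and the host cells, members included, were wild type. The control library (labelled Ctrl) came from tumors that the study calls untreated (its general methods also describe a sham operation, and which was sequenced cannot be settled here), and the iIRE library (labelled IRE) from residual tumors 3 days after a pulse treatment that left part of the tumor alive. Each group is 1 library prepared with a 5′ kit from 10x Genomics, the number of mice behind it is not given in the sources used here, and no test between groups is possible. Intervals at 95% (exact Clopper-Pearson for shares, exact Poisson for sums of UMIs, exact conditional for log2 ratios) cover counting error only. They leave out the spread between cells and between mice.

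The libraries held 18538 control and 19433 iIRE barcodes with 247105192 and 222153118 UMIs. Which barcodes belong to which library was inferred from the library numbers in the labels, and every direction between libraries below rests on this. The members contributed 406472 control UMIs and 256909 iIRE UMIs, and their median cell had 5638 and 6325.5 UMIs. Levels below are a gene's UMIs, added up over all cells of one class and library, per 1000000 UMIs of those cells (CPM). They are not divided by gene length, and are compared within a gene only. A total of 3 UMIs, taken as the floor of detection, corresponds to 7.38 CPM in control members and to 11.7 CPM in iIRE members. The libraries shared 458 barcode sequences, of which 2 were those of control members, and 1 member had a doublet score high enough for removal.

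Ccr7 itself was at 4268 CPM in control members and at 3526 CPM in iIRE members, with medians of 16 and 11.5 UMIs per cell. In cells of the same libraries with MHC class II but C1q at or above the limit (243 control and 134 iIRE cells, hereafter C1q-high macrophages), 3.70% and 8.21% of the cells held a Ccr7 UMI at median depths of 6967 and 6123 UMIs. In tumor cells with at least 10 UMIs of Krt8, Krt18 and Cdkn2a, a type that should lack Ccr7, 2.87% of control and 2.34% of iIRE cells held a Ccr7 UMI at median depths of 11352 and 8605.5 UMIs. Ccr7 UMIs therefore also occur in these 2 classes, at up to 48 in a control C1q-high macrophage and 46 in a control tumor cell. A Ccr7 UMI alone thus does not mark a mature dendritic cell. Of the 104 members, 12 held 1 Ccr7 UMI, 17 held 2 to 4 and 75 held at least 5.

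Most label markers were detected in a larger share of the cells with high Ccr7. Fscn1 UMIs were found in 1 of 12 cells with 1 Ccr7 UMI, in 2 of 17 cells with 2 to 4 and in 45 of 75 cells with 5 or more. Ccl5, a chemokine that attracts T cells, was found in 2 of 12, 2 of 17 and 49 of 75 cells. Ccl22, a ligand of the receptor CCR4, was found in 4 of 12, 9 of 17 and 60 of 75 cells. After every cell was thinned to 2000 UMIs, Fscn1 was found in 1 of 8, 1 of 11 and 44 of 71 cells of sufficient depth. Ccl17 was found in 5 of 12, 9 of 17 and 47 of 75 cells, and after thinning in 1 of 8, 6 of 11 and 33 of 71, where the share in the last stratum was no higher than in the middle one. Among cells with 5 or more Ccr7 UMIs, Fscn1 was found in 34 of 46 control and 11 of 29 iIRE cells, and Ccl5 in 36 of 46 and 13 of 29. Of the 4 label markers besides Ccr7, all 4 were detected in 31 members (22 control, 9 iIRE) and none in 23 (9 control, 14 iIRE). The label of mature dendritic cells thus fitted only part of the members, in the iIRE library also only part of those with high Ccr7.

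**Figure D1:**
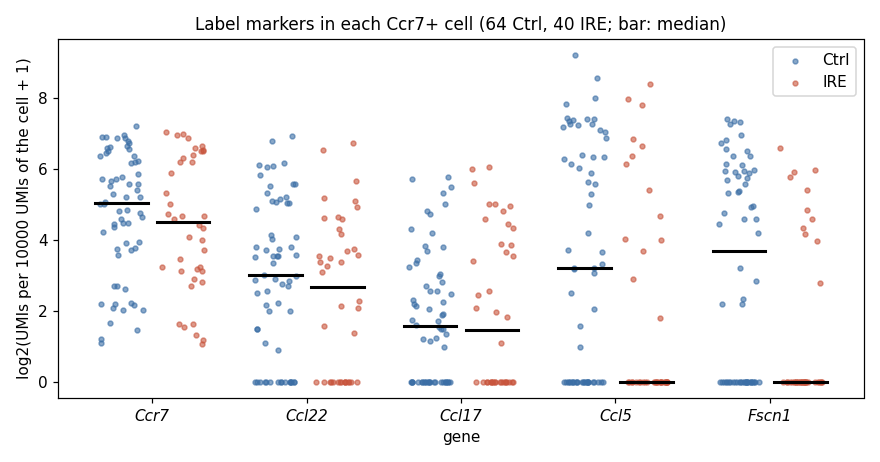
Each point is 1 member (64 control, 40 iIRE) and gives the UMIs of a label marker per 10000 UMIs of the cell as log2(value + 1); the black bar is the median of the library. Both libraries hold cells at 0 and cells at high levels of Ccl22 and Ccl17, while most iIRE cells lie at 0 for Ccl5 (26 of 40) and Fscn1 (29 of 40).

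At the limits of the rule, the members with the least MHC class II had 0.315%, 0.328% and 0.340% of UMIs in these genes, and the nearest cells outside had 0.2997%, 0.294% and 0.268%. The member with the most C1q had 0.0740% and the nearest cell outside had 0.108%. The lower limit on MHC class II kept out 13 cells (7 control, 6 iIRE) that had at least 5 Ccr7 UMIs and met the other parts of the rule, 10 of which held Fscn1 UMIs (6 control, 4 iIRE). In them Ccl5, which T cells also express, stood at 10770 CPM in the control and 15023 CPM in the iIRE library, and 1 control and 2 iIRE cells held UMIs of the T cell genes Cd3e, Cd3d or Trac. Cells with strong Ccr7 and little MHC class II were thus cut by the rule in both libraries.

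Members made up 0.359% (0.277 to 0.459) of control cells and 0.212% (0.152 to 0.289) of iIRE cells, a log2 ratio of -0.76 (-1.37 to -0.17). C1q-high macrophages went from 1.36% to 0.712% (log2 ratio -0.94) and cells that met every part of the rule but had no Ccr7 UMI (149 control and 83 iIRE, hereafter Ccr7-negative cells) went from 0.836% to 0.441% (log2 ratio -0.92). C1q-high macrophages are only those above the limit on MHC class II, with medians of 2.99% in the control and 0.946% in iIRE. For all macrophages the study reports the opposite, a larger share after iIRE by its own clusters and by flow cytometry. For its cluster of dendritic cells it reports a smaller share after iIRE. The directions found here rest on the inferred assignment of barcodes to libraries, which was not tested. The order of UMIs per cell also differed from the study's, as given with the processing below. Within all cells with MHC class II and few tumor cell UMIs, members were 14.04% of 456 control cells and 15.6% of 257 iIRE cells, a log2 ratio of 0.15 (-0.46 to 0.74). The lower share of members was therefore shared by the other cells with MHC class II. Most other cells in both libraries were tumor cells, and loss of members cannot be told apart from a gain of other cells.

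The Y-linked genes Ddx3y, Eif2s3y, Kdm5d and Uty summed to 133 CPM in control members and 140 CPM in iIRE members, against 2.89 CPM in the control tumor cells. Of 10 genes of T and NK cells, 7 (Cd3d, Cd3e, Cd3g, Trbc2, Cd4, Nkg7 and Gzma) were at 0 UMIs in the members of both libraries, as were all 5 genes of the mast cell list. The T and NK cell list summed to 52 UMIs (128 CPM) in 19 control and 78 UMIs (304 CPM) in 17 iIRE members. Of these, 50 and 76 UMIs were of the single gene Klrd1. The plasmacytoid dendritic cell list had 58 UMIs (143 CPM) in control and 42 UMIs (163 CPM) in iIRE members, in 26 of 64 and 23 of 40 cells, with 3 of its 8 genes at 0, the defining gene Siglech among them. The Langerhans cell list had 1 and 3 UMIs, with Cd207 at 0. B cell transcripts were present: Cd79a, a part of the B cell receptor, was detected in 11 members (4 control, 7 iIRE). No member held UMIs of both Cd79a and Fscn1. Lyz2, a lysozyme gene of monocytes and macrophages, was detected in 16 control and 17 iIRE members, of which 7 and 2 also held Fscn1 UMIs. B cells also express Ccr7 and MHC class II, and without the 11 members with Cd79a UMIs, an alternative chosen after seeing the data, the share of members was 0.337% in the control and 0.175% in iIRE (log2 ratio -0.94). The part of other cell types in the results below was otherwise not tested beyond the values given beside them.

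Members were next compared with the Ccr7-negative cells of the same library. Of 5349 genes with at least 50 UMIs over these cells, 191 (3.57%) were at least 2-fold higher in members in both libraries, and 242 (4.52%) were at least 2-fold lower, on the scale of log2(CPM + 10). Over all these genes the median log2 ratio was -0.21 in the control and -0.15 in the iIRE library. Genes of the rule were left out of the counts. Of a list of 40 genes of the mature dendritic cell program, 38 had enough UMIs, 31 of these were higher in both libraries and none was lower, with medians of 2.81 (control) and 2.10 (iIRE). The exceptions were Cd86, Aldh1a2, Birc3, Icosl, Anxa3, Epsti1 and Cd63, none of which reached 2-fold in both libraries. The list holds the label markers Ccl22, Ccl17, Ccl5 and Fscn1, and was chosen with earlier results of these data known. Its count is thus a description and no independent support for the label.

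Of 15 chemokines, 4 were higher in members in both libraries and 5 lower, with medians of -1.37 (control) and -0.31 (iIRE). Ccl5 (chromosome 11, 83525778 to 83530518, minus strand, mm10) was at 6625 CPM in control members and 2526 CPM in iIRE members, against 83.6 and 1.67 CPM in Ccr7-negative cells (log2 ratios 6.15 and 7.76). Ccl22 (chromosome 8, 94745590 to 94751699, plus strand) was at 1929 and 1358 CPM against 18.7 and 11.7 CPM, log2 ratios of 6.08 and 5.98. Ccl17 (chromosome 8, 94810453 to 94812036, plus strand), the other CCR4 ligand and a neighbor of Ccl22, was at 893 and 1179 CPM against 103 and 24.99 CPM, log2 ratios of 2.995 and 5.09. Each of these genes was higher in members of both libraries. In single members Ccl17 and Ccl22 went together with a Spearman rho of 0.59 (0.474 in control and 0.775 in iIRE cells), a description over 104 cells whose values share each cell's depth. The chemokines of macrophages showed the opposite: Ccl7 was at 4.92 and 7.78 CPM in members against 169 and 235 CPM in Ccr7-negative cells, and Ccl3 at 4.92 and 15.6 CPM against 161 and 192 CPM.

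The promoters of these genes are shown since the members of the program were high together. They were taken from RefSeq for GRCm38.p6, the assembly of mm10, from 250 bases before to 50 bases after the transcript start. Of 28 genes looked up, 20 could be matched. The 28 were label markers, program genes and other genes high in members, such as Ramp3 and Mmp25. Both strands of each were searched for the NF-kB consensus, for the interferon-stimulated response element (ISRE, a GAAA that follows another GAAA after any 2 bases) and for the AP-1 element (TGANTCA), and matches are in capitals. Ccl22 at chr8:94745434-94745733 and Ccl17 at chr8:94810203-94810502, both on the plus strand, held no match to any of these motifs in this window.
Ccl22: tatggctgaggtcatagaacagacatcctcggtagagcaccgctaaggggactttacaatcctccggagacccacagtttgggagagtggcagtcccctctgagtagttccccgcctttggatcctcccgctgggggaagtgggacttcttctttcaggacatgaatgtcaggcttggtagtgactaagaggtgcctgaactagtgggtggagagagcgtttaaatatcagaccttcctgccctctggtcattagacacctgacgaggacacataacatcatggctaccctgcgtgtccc
Ccl17: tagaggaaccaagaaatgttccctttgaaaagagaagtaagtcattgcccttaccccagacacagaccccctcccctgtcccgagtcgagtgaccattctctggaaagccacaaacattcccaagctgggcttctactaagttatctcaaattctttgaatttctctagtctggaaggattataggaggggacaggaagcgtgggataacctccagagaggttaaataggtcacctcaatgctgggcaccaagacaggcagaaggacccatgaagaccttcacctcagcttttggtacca

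Fscn1 (chromosome 5, 142960343 to 142973185, plus strand), which bundles actin in the long dendrites of mature cells, was at 3648 CPM in control members and 926 CPM in iIRE members. In Ccr7-negative cells it was at 10.8 and 73.3 CPM, so that the log2 ratios were 7.46 and 3.49. Tumor cells of these libraries also express it, with a UMI in 89.6% of control and 83.1% of iIRE tumor cells, while 5.35% of control C1q-high macrophages and 0 of 134 iIRE ones (exact upper bound 2.72%) held one. The 57.8% of control members and 27.5% of iIRE members with an Fscn1 UMI were above both shares for macrophages. Of 19 genes for the cytoskeleton and migration, 7 were higher in members in both libraries and 0 were lower. Cytip, which controls the adhesion of dendritic cells to T cells, was at 1085 and 833 CPM against 504 and 340 CPM. Actb, the main actin gene, was at 17224 and 17602 CPM against 10472 and 11305 CPM and did not reach 2-fold. The Fscn1 promoter, at chr5:142960105-142960404 on the plus strand, held none of the motifs.
Fscn1: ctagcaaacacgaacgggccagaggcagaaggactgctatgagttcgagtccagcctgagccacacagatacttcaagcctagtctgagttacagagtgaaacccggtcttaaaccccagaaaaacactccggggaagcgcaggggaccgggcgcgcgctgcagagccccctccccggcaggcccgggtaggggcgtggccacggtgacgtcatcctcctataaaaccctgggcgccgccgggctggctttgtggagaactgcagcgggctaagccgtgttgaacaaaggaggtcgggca

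Other genes with large ratios included inhibitors of serine proteases. Serpinb9, an inhibitor of granzyme B that protects cells from cytotoxic granules, was at 556 and 206 CPM in control and iIRE members and at 2.95 and 4.999 CPM in Ccr7-negative cells. Serpinb6b, of the same family, was at 733 and 354 CPM against 4.92 and 13.3 CPM. Ramp3, which modifies receptors of the calcitonin family, was at 536 and 385 CPM against 31.5 and 14.996 CPM. Cacnb3, a subunit of voltage-gated calcium channels, was at 408 and 152 CPM against 0.983 and 10.0 CPM. Nudt17 was at 231 and 117 CPM in members and at 0 UMIs in Ccr7-negative cells of both libraries, which makes it at least 78.4-fold higher in the control and at least 23.4-fold higher in the iIRE library, taking 3 UMIs per library as the floor. Tbc1d4 (736 and 467 CPM against 61.9 and 48.3 CPM), Mmp25 (229 and 156 CPM against 1.97 and 3.33 CPM), Mir155hg (236 and 195 CPM against 17.7 and 14.996 CPM) and Fabp5 (2145 and 1604 CPM against 176 and 100 CPM), a carrier of fatty acids, were also among the 15 largest.

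Serpinb9 and Ramp3 held a match in their windows, at chr13:33004291-33004590 and chr11:6658283-6658582, both on the plus strand. In Serpinb9 it is an ISRE on the opposite strand, whose first printed base lies at -46 from the transcript start, and in Ramp3 an NF-kB consensus at -51. Of the other genes looked up, Mmp25 and Rel and Tnfrsf9 also held an NF-kB consensus, and Cd80 and Tnfrsf9 held an AP-1 element. Ramp3 and Mmp25 are not in the list of the mature program. Of 32851 promoter windows of the same length, 4.51% held the NF-kB consensus, 3.44% the ISRE and 7.81% the AP-1 element. A match is a description of the letters and does not show that a factor binds.
Serpinb9: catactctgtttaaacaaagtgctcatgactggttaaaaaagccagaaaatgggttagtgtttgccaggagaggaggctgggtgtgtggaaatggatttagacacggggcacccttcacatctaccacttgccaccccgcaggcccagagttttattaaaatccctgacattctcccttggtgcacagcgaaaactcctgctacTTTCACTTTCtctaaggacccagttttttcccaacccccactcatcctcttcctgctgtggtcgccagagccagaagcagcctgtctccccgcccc
Ramp3: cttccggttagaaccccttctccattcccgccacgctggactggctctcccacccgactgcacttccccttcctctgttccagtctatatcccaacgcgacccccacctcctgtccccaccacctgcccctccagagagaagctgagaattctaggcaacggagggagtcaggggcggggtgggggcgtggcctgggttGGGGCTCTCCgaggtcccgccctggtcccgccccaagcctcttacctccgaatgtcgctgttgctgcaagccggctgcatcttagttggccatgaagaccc

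Costimulatory and inhibitory genes were both high in members. Of 9 costimulation genes, 6 were higher in both libraries and 0 were lower. Cd40, the receptor for CD40 ligand on helper T cells, was at 337 and 160 CPM against 17.7 and 14.996 CPM. Cd80, a ligand of CD28, was at 403 and 288 CPM against 118 and 110 CPM, and Cd86, another ligand of CD28, at 546 and 487 CPM against 254 and 240 CPM. Cd83, which stabilizes MHC class II and CD86 at the surface, was at 1304 and 1409 CPM against 566 and 367 CPM. Of 13 genes for coinhibition and tolerance, 6 were higher and 2 lower. Cd274 was at 435 and 308 CPM against 105 and 46.7 CPM, Pdcd1lg2 (PD-L2) at 135 and 160 CPM against 21.6 and 6.66 CPM, and Cd200, a ligand that restrains myeloid cells, at 293 and 101 CPM against 9.83 and 16.7 CPM. Il4i1, an amino acid oxidase, was at 445 and 463 CPM against 8.85 and 1.67 CPM. The tryptophan-degrading enzymes Ido1 and Ido2 were at 0 UMIs in the members of both libraries.

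**Figure D2:**
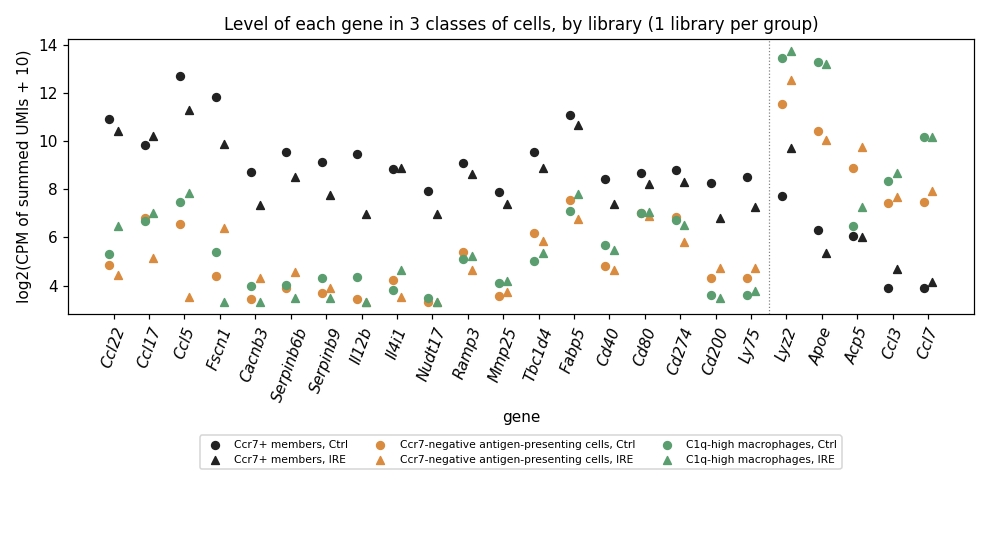
Points give log2(CPM + 10) of each gene in members (black), Ccr7-negative cells (orange) and C1q-high macrophages (green), as circles for the control and triangles for the iIRE library, with 1 library per group and no error bar. Left of the dotted line the members lie above both other classes, and right of it, for Lyz2, Apoe, Acp5, Ccl3 and Ccl7, they lie below Ccr7-negative cells.

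Among cytokines, Il12b, the p40 chain of interleukin-12 and interleukin-23, was at 689 CPM in control and 117 CPM in iIRE members. Ccr7-negative cells held 0.983 CPM in the control and 0 UMIs in the iIRE library, where members were at least 23.4-fold higher. Il1b was at 3346 and 4243 CPM in members against 2685 and 2981 CPM and did not reach 2-fold. Of 17 genes of NF-kB factors and their feedback, 8 were higher in members in both libraries and 0 were lower. The factor gene Rel was at 763 and 743 CPM against 257 and 240 CPM, Nfkb1 at 558 and 705 CPM against 212 and 292 CPM, and the adaptor gene Traf1 at 871 and 599 CPM against 153 and 145 CPM. Nfkbia, the feedback inhibitor, was at 2886 and 3394 CPM against 1353 and 1821 CPM and passed 2-fold in the control library only.

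Genes for antigen presentation differed less. Of 14 genes for MHC class I and peptide loading, 2 were higher in both libraries, one of them H2-Q7 at 418 and 304 CPM against 141 and 108 CPM. H2-K1 was at 2340 and 1709 CPM against 1101 and 1158 CPM, and passed 2-fold in the control library only. Of 7 MHC class II genes outside the rule, 0 passed 2-fold in both libraries in either direction. Ly75 (DEC-205), an uptake receptor of dendritic cells, was at 354 and 144 CPM against 9.83 and 16.7 CPM. Of genes that mark dendritic cells in general, Flt3, the receptor for a growth factor of dendritic cells, was at 182 and 97.3 CPM against 58.0 and 23.3 CPM and Zbtb46, a transcription factor of conventional dendritic cells, at 145 and 70.1 CPM against 51.1 and 18.3 CPM. Both were at 3.42 to 5.82 CPM in C1q-high macrophages.

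The genes at least 2-fold lower in members included many of other lineages. Of 7 monocyte genes 6 were lower, of 9 macrophage genes 5, and of 4 fibroblast genes 4, with Col3a1 at 4.92 and 11.7 CPM in members against 270 and 1346 CPM. Lyz2 was at 202 and 833 CPM against 2979 and 5848 CPM, and Apoe, an apolipoprotein gene of macrophages, at 68.9 and 31.1 CPM against 1376 and 1051 CPM. The Ccr7-negative cells are thus a mixture that held fibroblast and monocyte transcripts. Without Ccr7-negative cells that had more than 2 UMIs of the fibroblast list, 190 genes were higher and 181 lower. Of 10 genes of conventional type 1 dendritic cells (cDC1), 4 were lower in members and none was higher. Against C1q-high macrophages, 255 of 6318 genes (4.04%) were higher in both libraries and 425 (6.73%) were lower, with 29 of 39 program genes higher and 11 of 11 macrophage genes lower.

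The members were not of 1 kind. Of the 104, 48 held at least 1 Fscn1 UMI and 56 held none, a split that was made after the values had been seen. Fscn1-positive members had a median of 1.04% of UMIs in the MHC class II genes of the rule (0.315 to 9.16) and Fscn1-negative members a median of 6.71% (1.14 to 13.6). Under 2% were 34 of 48 Fscn1-positive cells and 1 of 56 Fscn1-negative cells. Across the cells, Spearman rho between Fscn1 and MHC class II was -0.747 (-0.746 in control, -0.585 in iIRE cells), and between Fscn1 and Ccl5 0.811. These describe cells of 2 libraries, since all shares of a cell have the same total. The MHC class II genes were also part of the rule, whose lower limit kept out cells with Fscn1 UMIs. Their values here are thus description only.

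**Figure D3:**
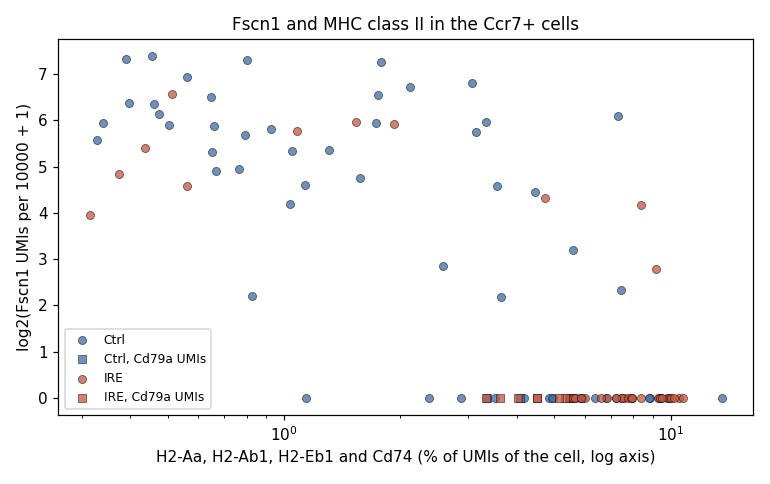
Each point is 1 of the 104 members, blue for control and red for iIRE, with its share of UMIs in 4 MHC class II genes (log axis) against its Fscn1 level as log2(UMIs per 10000 + 1); squares mark the 11 cells with Cd79a UMIs. The cells with Fscn1 lie mainly under 2% MHC class II (34 of 48), and those without it above 2% (55 of 56).

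Most named program genes were higher in Fscn1-positive members, but Ccl17 was not. The 39 program genes other than Fscn1 together were at 38509 CPM in Fscn1-positive and 8576 CPM in Fscn1-negative members. Ccl5 was at 11068 against 233 CPM, Ccl22 at 2961 against 710 CPM, Serpinb6b at 1295 against 21.7 CPM, Cacnb3 at 673 against 19.0 CPM and Il12b at 969 against 67.7 CPM. Cd40 was at 506 against 78.6 CPM, Cd274 at 659 against 168 CPM and Cd200 at 479 against 10.8 CPM. Ccl17, in contrast, was at 901 CPM in Fscn1-positive and 1086 CPM in Fscn1-negative members, and was detected in 33 of 48 and 28 of 56 cells. Cd86 was likewise close, at 510 against 534 CPM. The Fscn1-negative members held the transcripts of other states: Mgl2, a lectin of type 2 conventional dendritic cells (cDC2) and macrophages, was at 1308 against 64.6 CPM, Cd209a, another lectin of cDC2, at 477 against 0 CPM, Lyz2 at 745 against 71.4 CPM and Cd79a at 246 against 0 CPM.

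By the number of UMIs of the cDC1 and cDC2 lists, 50 members (34 control, 16 iIRE) had more of the first, 49 (27 control, 22 iIRE) more of the second, 2 had equal numbers and 3 had neither. This is a range and not a type, since Irf8, a factor of cDC1 that B cells also express, gave 60.7% of the cDC1 UMIs and Mgl2 gave 45.6% of the cDC2 UMIs. The defining cDC1 genes Xcr1 and Clec9a had 5 and 8 UMIs in all 104 cells. Cells with more cDC1 UMIs had Ccl5 at 9838 CPM and Il12b at 1014 CPM, and cells with more cDC2 UMIs had 1024 and 60.7 CPM. Ccl17 was at 1070 and 983 CPM in these, and differed little between them.

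Clustering of the members gave 7 subclusters, which are described by their leading genes and left unnamed. Subclusters 4 (12 control, 2 iIRE), 6 (9 control, 3 iIRE) and 7 (8 control, 4 iIRE) had the least MHC class II, with medians of 1.08%, 0.658% and 0.712%, and the program genes together at 49758, 56986 and 41780 CPM. Subcluster 4 was led by Laptm4b (722 CPM), Bcl2l14 (1259 CPM) and Epsti1 (1740 CPM) and had Il12b at 1817 CPM but Ccl17 at 120 CPM. Subcluster 6 was led by Cxcl1, a chemokine for neutrophils, at 2839 CPM, with Ccl5 at 16888 CPM and Ccl22 at 5387 CPM. Subcluster 7 had Fabp5 at 6631 CPM and Il12b at 157 CPM. Subcluster 3 (10 control, 5 iIRE) joined MHC class II at a median of 7.32% with the highest Ccl17 (2354 CPM) and Il4i1 (1355 CPM) of the 7, and with Fscn1 at 951 CPM.

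The remaining subclusters held little of the program, at 4933 to 9526 CPM. Subcluster 1 (10 control, 13 iIRE) was led by Cd79a at 802 CPM and had Klrd1 at 555 CPM. Klrd1, a receptor gene of natural killer cells, gave nearly all UMIs of the T and NK cell list in members. Subcluster 2 (8 control, 7 iIRE) was led by Arg1 (545 CPM), with Lyz2 at 1971 CPM and Cxcl2, a neutrophil chemokine, at 9218 CPM. Subcluster 5 (7 control, 6 iIRE) was led by Cd209a (1442 CPM) and had Mgl2 at 2215 CPM and the highest median MHC class II, 9.38%. The marker label fitted subclusters 3, 4, 6 and 7, which held 53 of the 104 members, and not these.

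**Figure D4:**
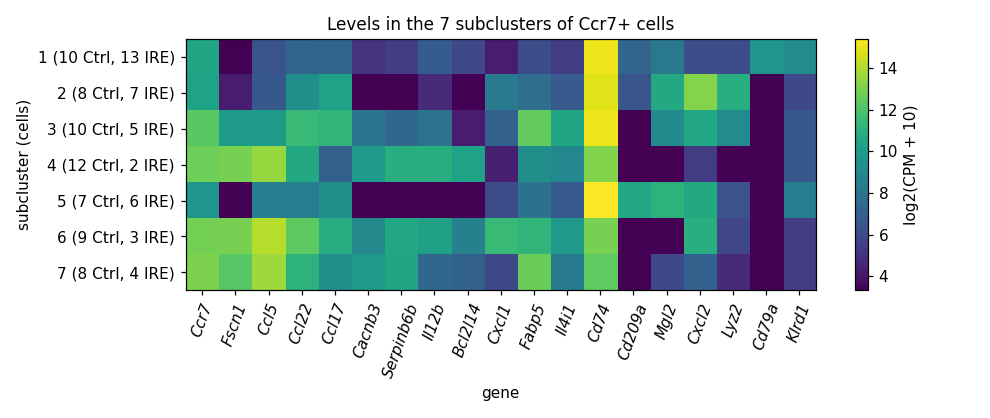
Colors give log2(CPM + 10) of 19 genes (columns) in the 7 subclusters of members (rows, with the cells from each library), over both libraries. Subclusters 4, 6 and 7 share high Ccr7, Fscn1 and Ccl5 and lower Cd74, and subclusters 1, 2 and 5 have Fscn1 at 0 to 9.08 CPM.

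The iIRE and control members were then compared to ask which genes differed in the residual tumor. Of 1849 genes with at least 50 UMIs in members, 147 (7.95%) were at least 1.5-fold higher and 251 (13.6%) at least 1.5-fold lower in iIRE members, with a median log2 ratio of -0.01 over all these genes. Of the mature program, 18 of 34 genes were lower and 0 higher (median -0.70). Of 10 MHC class II genes, 7 were higher and 0 lower (median 0.71). The rule genes H2-Aa, H2-Ab1, H2-Eb1 and Cd74 were all among the 7. This count and median thus rest in part on values that the rule used, and are description only.

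Among label markers, Fscn1 went from 3648 to 926 CPM, a log2 ratio of -1.97 (-2.18 to -1.78). It ranged over cells from 0 to 211 UMIs with a median of 7 in the control and from 0 to 59 with a median of 0 in iIRE. Ccl5 went from 6625 to 2526 CPM, a log2 ratio of -1.39 (-1.52 to -1.27), with per-cell medians of 7 and 0 UMIs and highest cells of 366 and 171. Cells of the libraries overlapped for both genes, and in iIRE the 3 highest cells gave 56.7% of the Fscn1 and 56.1% of the Ccl5 UMIs. Ccl22 went from 1929 to 1358 CPM (log2 ratio -0.50) and Ccl17 from 893 to 1179 CPM (0.40), and neither passed 1.5-fold.

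Il12b and Isg15, an interferon-stimulated gene, were lower in iIRE members. Il12b went from 689 to 117 CPM, a log2 ratio of -2.46 (-3.16 to -2.01), and was detected in 19 of 64 and 8 of 40 cells. Isg15 went from 445 to 128 CPM. Irf8 went from 657 to 292 CPM. The smallest ratios were those of Laptm4b, with 72 UMIs in control and 1 UMI in iIRE members, Bcl2l14 (367 to 42.8 CPM) and Ncoa7 (440 to 54.5 CPM). The heat shock genes Hspa1a (150 to 31.1 CPM) and Hspa1b (155 to 15.6 CPM), whose near-identical sequences can split reads, were also low in iIRE. In the control, 3 cells gave 61.9% of the Hspa1b UMIs. Of 7 heat shock genes 2 were lower and 0 higher, and the list summed to 5297 CPM in control and 4527 CPM in iIRE members.

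Costimulatory and presentation genes differed unevenly between the libraries. Cd40 went from 337 to 160 CPM and Cd200 from 293 to 101 CPM, both past 1.5-fold. Cd86 (546 to 487 CPM), Cd83 (1304 to 1409 CPM), Cd80 (403 to 288 CPM), Cd274 (435 to 308 CPM) and Il4i1 (445 to 463 CPM) did not pass it. Of 14 MHC class I genes 5 were lower, among them B2m, the light chain of MHC class I, from 2539 to 1643 CPM. Cd74, the MHC class II invariant chain, went from 20648 to 33510 CPM (log2 ratio 0.70) and H2-DMb2, which helps to load peptides and was not in the rule, from 440 to 771 CPM (0.79).

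The genes with the largest ratios included several that other lineages also express. Lyz2 went from 202 to 833 CPM, a log2 ratio of 1.99 (1.67 to 2.43), with 35.0% of its iIRE UMIs in 1 cell. The monocyte list, in contrast, summed to 431 CPM in control and 370 CPM in iIRE members with 0 of 3 genes past 1.5-fold, and the macrophage list to 494 and 510 CPM with 1 of 3 higher and 1 lower. Ly6e went from 440 to 1362 CPM, Cfp, the complement factor properdin, from 344 to 938 CPM, and Klrd1 from 123 to 296 CPM. Other genes of the T and NK cell list, Nkg7, Gzma and Cd3e among them, were at 0 UMIs in members. Cxcl10 went from 39.4 to 152 CPM, but 38 of its 39 iIRE UMIs came from 1 cell. Cd79a went from 88.6 to 214 CPM, but its log2 ratio turned to -2.49 after thinning to 2000 UMIs. Thinning left out cells below 2000 UMIs, and members with B cell gene UMIs had median depths of 1685 (control) and 1593.5 (iIRE) UMIs. Without the members with Cd79a UMIs the log2 ratios were -1.94 for Fscn1, -1.36 for Ccl5, -2.44 for Il12b and 0.71 for Cd74. In the 46 control and 29 iIRE members with at least 5 Ccr7 UMIs, the log2 ratios were -1.96 for Fscn1, -1.33 for Ccl5, -2.44 for Il12b and 1.01 for Cd74.

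The share of members with Fscn1 UMIs also differed between libraries. Fscn1-positive cells were 57.8% (44.8 to 70.1) of control and 27.5% (14.6 to 43.9) of iIRE members. As a share of all cells they were 0.208% and 0.0584%, a log2 ratio of -1.83 (-2.95 to -0.83), while Fscn1-negative members were 0.152% and 0.154%, a log2 ratio of 0.02 (-0.78 to 0.84). Thus 37 control and 11 iIRE cells held Fscn1, against 27 and 29 cells without it. The split by Fscn1 was made after its lower level in iIRE members had been seen. These shares thus restate that difference in part and are no separate support for it.

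Within Fscn1-positive members several log2 ratios lay nearer to 0. Ccl5 was at 11453 CPM in 37 control and 9688 CPM in 11 iIRE cells (log2 ratio -0.24), Serpinb6b at 1296 and 1293 CPM, and Cd274 at 652 and 685 CPM. Of 816 genes in these cells 68 (8.33%) were higher and 124 (15.2%) lower in iIRE (median -0.03). Of 34 program genes 2 were higher and 8 lower (median -0.22). Of 6 MHC class II genes, from a list that holds the genes of the rule, 3 were higher and 0 lower (median 0.69). Fscn1 stayed lower in iIRE, at 6448 and 3707 CPM (log2 ratio -0.80). Il12b was lower there too, at 1157 and 296 CPM with a log2 ratio of -1.93 (-2.72 to -1.29), as did Bcl2l14 (626 and 156 CPM) and Ncoa7 (683 and 46.7 CPM). Fabp5 (3191 and 5607 CPM), Cd74 (10535 and 19501 CPM) and Il4i1 (709 and 1168 CPM) were higher in iIRE, each resting in part on 1 cell. Without the iIRE cell with most UMIs of the gene, Fabp5 was at 4726 CPM (log2 ratio 0.57) and Cd74 at 13413 CPM (0.35), both under 1.5-fold, and Il4i1, with 43 of its 75 UMIs in that cell, was at 598 CPM (-0.24), the opposite direction. Without the control cell with most UMIs, Il12b was at 972 CPM (-1.68).

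Within Fscn1-negative members, 71 of 1027 genes (6.91%) were higher and 88 (8.57%) lower in iIRE. Of 17 program genes 3 were higher and 2 lower (median 0.13). Of 10 MHC class II genes, a list that holds the genes of the rule, 0 passed 1.5-fold (median 0.15). Cd74 was at 33828 CPM in 27 control and 38177 CPM in 29 iIRE cells. Ccl22 was at 476 and 924 CPM, the opposite direction to that in all members, and 644 CPM in iIRE without its highest cell. Lyz2 was at 357 and 1100 CPM (742 CPM in iIRE without its highest cell, which held 75 of 212 UMIs), while the monocyte list summed to 912 and 488 CPM and the macrophage list to 997 and 612 CPM. Isg15 was at 380 and 41.5 CPM, a log2 ratio of -2.92, against -0.34 in Fscn1-positive cells. Without the control cell with most Isg15 UMIs, these became 191 and 41.5 CPM in Fscn1-negative members (-1.96) and a ratio of 0.02 in Fscn1-positive members. These differences between the groups of cells were not tested, since each library is 1 sample.

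**Figure D5:**
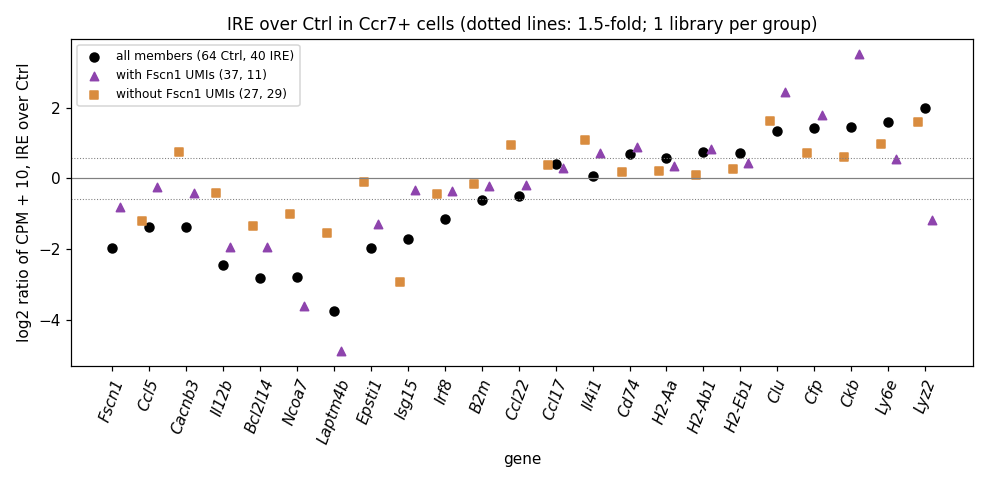
Points give the log2 ratio of CPM + 10, iIRE (IRE) over control (Ctrl), for 23 genes in all members (black), those with Fscn1 UMIs (purple) and those without (orange), with 1 library per group and dotted lines at 1.5-fold. Il12b, Bcl2l14, Ncoa7 and Laptm4b lie below 0 in each group, although in the cells without Fscn1 the ratios of Il12b, Ncoa7 and Bcl2l14 become 1.64, 0.08 and -0.07 without the control cell with most UMIs, and Ccl5 lies nearer to 0 in the cells with Fscn1 (-0.24) than in all members (-1.39).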

How the data were processed

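Per the labels and the file header, the authors aligned the reads to mm10 with Cell Ranger (7.0.1 in the header) and deposited UMI counts per gene and cell for both libraries in 1 matrix. Libraries were told apart by the barcode ending, whose number was taken as the library number in the labels. This assignment is an inference and was not tested. The study gives more UMIs per cell on average in iIRE than in control. Here the median of filtered cells was 8549 UMIs in the control and 6798.5 in iIRE, the opposite order. More cells were found in iIRE both in the study and here (18828 against 17814). The study's own cell filters were not applied to the matrix. Here cells were filtered and members chosen as given above. Within each library, counts of one class of cells were added up, scaled to CPM and compared as log2(CPM + 10) for genes with at least 50 UMIs over the groups compared. With 1 library per group no test was made. A gene was called past 1.5-fold between libraries, or past 2-fold in both libraries between classes. Genes were named by rule: the label markers, the highest list members, and the largest and smallest ratios. Other genes were chosen after their values were seen, as was the split by Fscn1. The members and lists were chosen with earlier results of these data known. Doublets were scored by simulated doublets (0.8% per 1000 cells) and removed only as an alternative. For equal depth, cells were thinned to 2000 UMIs. Gene coordinates came from GENCODE for mm10. Members were clustered with the Leiden method (scanpy 1.11.5, leidenalg 0.10.2, resolution 1). Sums and intervals used numpy 2.4.6 and scipy 1.17.1 in python 3.11.15. The comparison of libraries was tested on simulated data. These held counting error only, so the test does not cover the spread between cells or between mice. Some genes are not reported here. Alternative filters, pseudocounts, scalings and folds were tried.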

Additional observations from a re-analysis of the deposited data

How the results depend on the processing

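No paired analysis was possible because each group is 1 library, and for the same reason no replicate could be left out. The members were 64 and 40 cells, and intervals cover counting error only. The share of members in the control was 0.258% with MHC class II of at least 1%, where 113 genes were higher and 94 lower than in Ccr7-negative cells. Thinning gave 116 genes past 1.5-fold between libraries, and 121 higher and 150 lower between classes. Between libraries, 1098 genes passed with at least 20 UMIs, 3140 with at least 1 UMI, 1031 at 1.2-fold and 126 at 2-fold. Between classes, 390 were lower with a pseudocount of 1 CPM, 363 were higher and 637 lower at 1.5-fold, and 425 were lower against C1q-high macrophages. Median-ratio scaling gave 252 higher and 183 lower between classes, so that 57.9% of calls were higher in place of 44.1%. Chosen after seeing the data, Fscn1-positive members alone gave shares of 0.208% and 0.0584%, a log2 ratio of -1.83, 192 genes between libraries, and 327 higher and 794 lower between classes. Fscn1-negative members alone gave 159, and 62 higher between classes. Members without Cd79a UMIs gave 400, and 197 higher and 264 lower between classes.

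Of 840 log2 ratios of named genes between libraries under the alternatives, 54 (42 of 84 genes) had the opposite sign to the value reported, 23 of them in Fscn1-positive and 24 in Fscn1-negative members alone. Of 504 between classes 4 did, all of genes under 2-fold. The 17 between libraries that concern genes past 1.5-fold were as follows. Cd79a was at -2.49 after thinning. In Fscn1-positive members Nudt17 was at 0.0915, Socs2 at 0.37, Lyz2 at -1.17, Ly6a at -1.20, Klrd1 at -0.057, Il1a at -1.20 and Clec10a at -0.52. In Fscn1-negative members Cacnb3 was at 0.75, Serpinb6b at 2.365, Serpinb9 at 2.21, Nudt17 at 1.03, Tbc1d4 at 0.57, Cd63 at 2.06, Marcksl1 at 0.34, Cd40 at 0.15 and Ly75 at 0.54. The causes were not tested.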
